A study of Mus musculus with 9 samples.

Results

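The genes described here are 39 genes of the lysosome of mouse macrophages. They are 10 lysosomal proteases, 10 glycosidases and lipid hydrolases, the precursors prosaposin and progranulin, 6 lysosomal membrane proteins, 8 genes of the vacuolar proton pump (v-ATPase), and the 3 MiT transcription factor genes Tfeb, Tfe3 and Mitf. They are named by a fixed list of lysosomal genes, and each symbol was matched to 1 of the 55487 mouse Ensembl identifiers of the count files. Of the 39 genes, 38 passed the filter on low counts and were among the 14312 genes tested, each with at least 121 counts in every library. The gene that did not pass is Ctsh. Levels are given in CPM, counts per 1000000 counts of a library scaled with edgeR's TMM factors, and differences between genotypes are log2 fold changes with their standard errors. A gene was called at an adjusted p-value under 0.01 over all genes tested, and "rose" and "fell" are used of called differences.

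RNA from RAW264.7 macrophages, an established mouse line, was sequenced in 3 libraries for each of 3 genotypes. The wild-type cells (CEBPD wild type) carry the unedited gene of C/EBPδ, a transcription factor of the C/EBP family. The ΔTAD cells (CEBPD TAD mutant) carry an in-frame deletion of its transactivation domain, made with CRISPR/Cas9, and the knock-out cells (CEBPD KO) are homozygous clones from the same editing in which the deletion ran out of frame. All cells were unstimulated, and the edited cells were expanded from single sorted cells, so a difference from wild-type cells can also be a difference between clones. The comparison of the 3 genotypes asks whether losing the whole factor and losing its activating domain change the same genes. Neither the labels nor the methods say whether different clones or cultures gave the libraries of a genotype, so p-values measure only the spread between these libraries. In bulk RNA, fewer cells of a type and less RNA per cell cannot be told apart.

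The lysosome is the acidic organelle in which macrophages digest what they take up. Its hydrolases are made in the endoplasmic reticulum, mostly tagged with mannose 6-phosphate and sorted to the organelle, where the v-ATPase pumps in the protons on which they depend. The MiT factors bind E-box letters around CACGTG, known from the CLEAR element, near many lysosomal genes, and mTORC1 on the lysosome's surface holds TFEB and its relatives in the cytosol while nutrients are plentiful.

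The libraries held 16113306 to 20981829 counts on genes, and 3 counts, taken as the smallest detected amount, corresponded to 0.143 to 0.210 CPM. Replicate 1 of the ΔTAD cells stood apart, with 11.0% of its counts on the ribosomal RNA locus CT010467.1 against 0.303% to 1.16% in the other libraries. Results that turn on it are given with and without it. The targeted gene, Cebpd, was at 6.51 ± 0.674 CPM (SD, n = 3) in wild-type, 5.44 ± 0.201 CPM in knock-out and 5.44 ± 0.669 CPM in ΔTAD cells (log2 fold changes −0.26 and −0.24, edgeR adjusted p of 0.0850 and 0.0931), and since the deletion leaves most of the transcript in place, its level does not check the labels. Macrophage markers were present in every library, at a summed level of 3498 to 3686 CPM in wild-type, 4613 to 4995 CPM in knock-out and 7126 to 7304 CPM in ΔTAD cells. Of the 10 markers 9 were tested, of which 6 rose and 1 fell in knock-out and 7 rose and 1 fell in ΔTAD cells. Among all genes tested 22.8% rose and 22.4% fell in knock-out and 26.3% and 23.4% in ΔTAD cells. Lyz2, encoding lysozyme, and Adgre1, encoding F4/80, rose in both edited genotypes (by 0.86 and 1.45 on the log2 scale in knock-out and by 1.84 and 1.71 in ΔTAD cells), and Fcgr1 fell (−1.14 and −0.44). Much of the summed level was Lyz2 alone, at 1167 ± 61.9 CPM (SD, n = 3) in wild-type, 2114 ± 146 CPM in knock-out and 4192 ± 76.4 CPM in ΔTAD cells. Relative to the median of chromosome 17, where it lies, Adgre1 differed by 0.96 in knock-out and 1.21 in ΔTAD cells. The 7 T and B cell markers summed to at most 0.288 CPM and the 8 fibroblast and epithelial markers to at most 0.182 CPM in any library, with 5 of 7 and 6 of 8 at 0 throughout, and the granulocyte markers to at most 1.43 CPM. The part of the macrophage markers' shift in the results below was not tested.

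Promoters of the members are shown first, because many of them hold the letters CACGTG that MiT factors are known to bind. RefSeq's promoter windows on GRCm38.p6, 250 bases before to 50 bases after an annotated start, were found for 33 of the 39 genes. A gene can have several windows (32851 in all), and it was counted if any of them held the letters. The letters CACGTG, which read the same on both strands, were in 11 of these 33 (33.3%), against 8.09% of the 27025 genes with a window. The form TCACGTG, searched on both strands and contained in the same matches, was in 10 (30.3%, against 4.29% of all genes). The palindromic 10-base CLEAR consensus was in none of the 33, against 0.370% of all genes. TCATGTG was in 5 (15.2%, against 4.31%). CCAAT, the letters of NF-Y, was in 14 (42.4%, against 41.1%). The C/EBP letters TTGCGCAA were in none (against 0.207%), and the looser form TTGCNNAA, which contains them, in 5 (15.2%, against 12.2%). Matches are letters in a window and not binding sites.
Stretches upstream of an annotated start of 6 members that differ in how they moved are printed here, with CACGTG in capitals and up to 12 bases on each side.
Lamp1 (chr8:13159088-13159160, plus strand): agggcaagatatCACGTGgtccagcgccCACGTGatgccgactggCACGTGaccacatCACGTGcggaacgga
Glb1 (chr9:114401018-114401047, plus strand): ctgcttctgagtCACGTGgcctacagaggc
Gaa (chr11:119267811-119267840, plus strand): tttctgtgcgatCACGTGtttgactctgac
Naglu (chr11:101070009-101070038, plus strand): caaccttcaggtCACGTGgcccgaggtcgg
Lgmn (chr12:102439124-102439153, minus strand): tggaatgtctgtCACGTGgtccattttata
Ctsl (chr13:64370739-64370768, minus strand): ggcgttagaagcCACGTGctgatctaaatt
In the GENCODE annotation of GRCm38 the stretches of Lamp1, Glb1 and Gaa lie outside the gene, that of Lgmn within the gene and outside every exon, and 27 of the 30 bases of Naglu and 15 of the 30 of Ctsl in an untranslated region. The Lamp1 stretch holds the letters 4 times. The Lgmn match lies in a window whose lowest base is 102439043, at a start inside the gene. Another Lgmn window, with 102439679 as lowest base, is nearer the gene's outer end at 102439813 and had a match to CCAAT but none to CACGTG. Of the 11 members with CACGTG, 7 rose and 2 fell in knock-out cells and 8 rose and 2 fell in ΔTAD cells, where 22.8% and 26.3% of all genes tested rose and 22.4% and 23.4% fell. Of the 22 members whose windows lack it, 14 rose and 4 fell in knock-out and 13 rose and 1 fell in ΔTAD cells. The 6 genes printed include a member with 4 matches and no call in either edited genotype, Lamp1, and the member that fell the most, Ctsl.

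Most of the lysosomal genes were higher in both edited genotypes than in wild-type cells. In knock-out cells 25 of the 38 tested members rose, 6 fell and 7 were not called, where 22.8% of all genes tested rose and 22.4% fell (45.2% called). In ΔTAD cells 25 rose, 4 fell and 9 were not called, where 26.3% of all genes rose and 23.4% fell (49.7% called). Over the 38 genes the median difference was 0.27 in knock-out and 0.35 in ΔTAD cells on the log2 scale, beside −0.001 and −0.003 over all genes tested. Most of the shifts were small. A difference of 1 or more on the log2 scale was reached by 2 members that rose and 1 that fell in knock-out cells (7.66% of all genes in either direction) and by 3 that rose and 1 that fell in ΔTAD cells (9.31% of all genes in either direction). The standard errors of the members lay between 0.0227 and 0.0920 in knock-out and between 0.0228 and 0.103 in ΔTAD cells, smallest for Gpnmb and largest for Atp6v0d2. With library size alone, without the TMM factors, Ctsc, Man2b1, Psap, Tpp1 and Atp6v0d1 were no longer called in knock-out cells (edgeR adjusted p from 0.0101 to 0.155) and Hexa, Gaa and Psap in ΔTAD cells (0.160 to 0.497). Both comparisons use the same wild-type libraries, so they are not independent of each other.

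**Figure D1:**
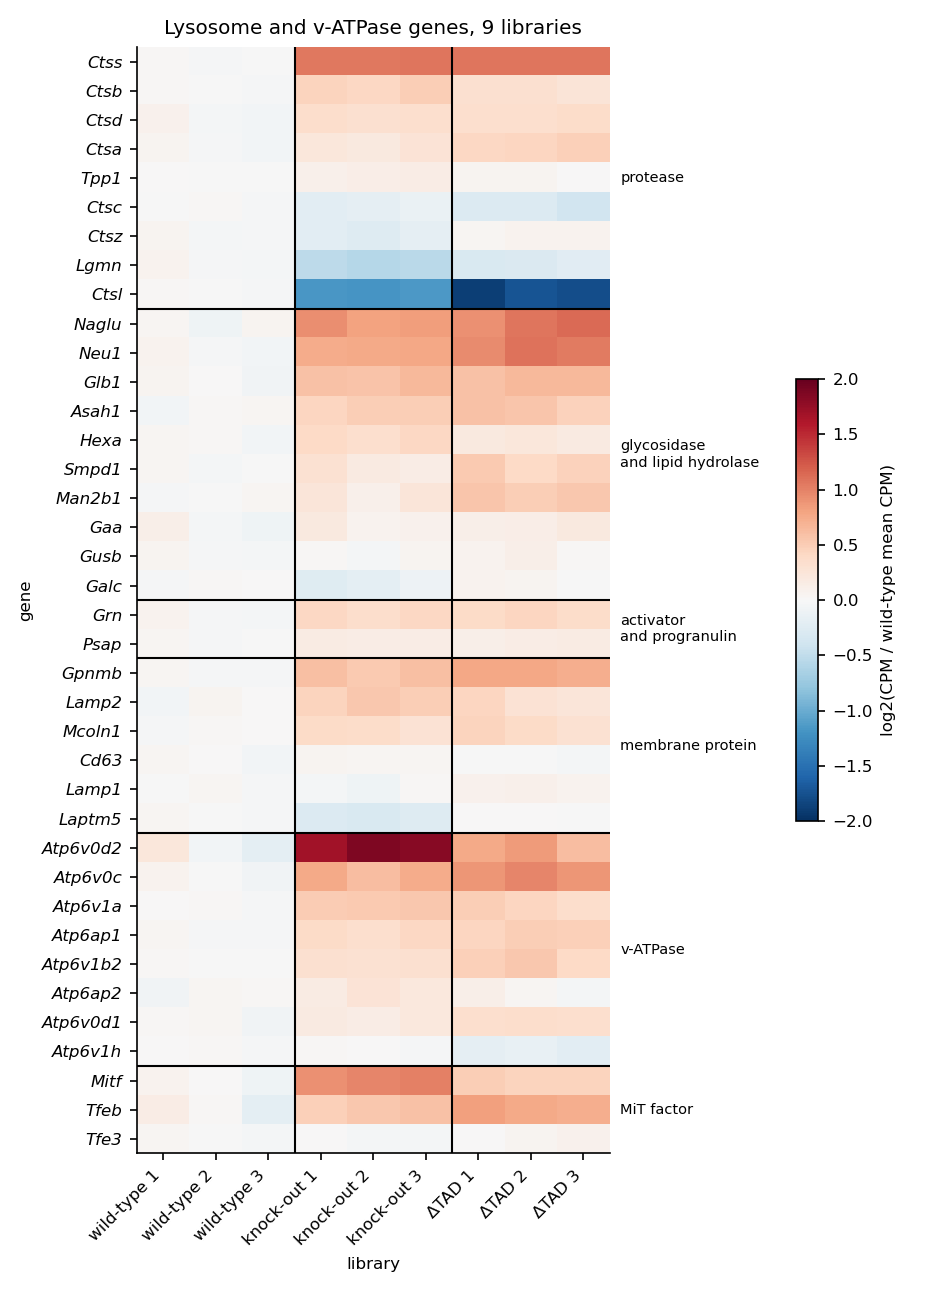
Levels of the 38 tested members in the 9 libraries, as log2 of the CPM over the mean CPM of the 3 wild-type libraries (colour, red higher and blue lower), with genes in rows grouped by role and libraries in columns. Most rows are red in the knock-out and ΔTAD columns, Ctsl is the darkest blue, and Atp6v0d2 is darkest red in the knock-out columns.

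The proteases moved in both directions. Of the 9 tested, 5 rose and 4 fell in knock-out cells, and 4 rose and 3 fell in ΔTAD cells. Among all genes tested 22.8% rose and 22.4% fell in knock-out and 26.3% and 23.4% in ΔTAD cells. Ctsl (ENSMUSG00000021477, chr13:64359337-64370890, minus strand) encodes cathepsin L, a cysteine endopeptidase of lysosomes. Its level was 594, 586 and 578 CPM in the wild-type libraries, 261, 259 and 264 CPM in the knock-out libraries and 159, 176 and 172 CPM in the ΔTAD libraries. Every knock-out library was below every wild-type library, and every ΔTAD library lower still. The log2 fold change fell by 1.17 in knock-out (SE 0.0381, edgeR adjusted p = 3.1e-18) and by 1.79 in ΔTAD cells (SE 0.0389, edgeR adjusted p = 8.2e-22). Ctss (ENSMUSG00000038642, chr3:95526786-95556403, plus strand) encodes cathepsin S, the cysteine protease that trims the invariant chain of MHC class II. It went the other way, from 861, 836 and 846 CPM in wild-type to 1758, 1761 and 1772 CPM in knock-out and 1775, 1779 and 1788 CPM in ΔTAD libraries. No edited library overlapped the wild-type ones, and the knock-out libraries lay just below the ΔTAD libraries, a difference that was not called (−0.01, edgeR adjusted p = 0.662). The rise was 2.08-fold in knock-out (log2 fold change 1.06, SE 0.0237, edgeR adjusted p = 2.1e-21) and 2.10-fold in ΔTAD cells (1.07, SE 0.0237, edgeR adjusted p = 1.2e-21).

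Among the other proteases, Ctsb, the abundant cathepsin B, rose from 3072 ± 64.3 CPM (SD, n = 3) in wild-type to 4201 ± 126 CPM in knock-out and 3787 ± 101.3 CPM in ΔTAD cells, log2 fold changes of 0.45 and 0.30. The aspartic protease Ctsd rose by 0.33 and 0.35. Ctsa, a carboxypeptidase that also protects Neu1 and Glb1 in their complex, rose by 0.23 and 0.44. Lgmn, encoding legumain, which cleaves after asparagine and processes other cathepsins, fell by 0.54 and 0.27. Ctsc, the dipeptidyl peptidase that activates granule proteases, fell by 0.18 and 0.31. The call of Ctsc in knock-out cells was lost without wild-type replicate 1 or 2 or without knock-out replicate 1 or 2, with edgeR adjusted p between 0.0184 and 0.0394. Ctsz, cathepsin Z, fell by 0.21 in knock-out cells and was 0.06 higher in ΔTAD cells, which was not called (edgeR adjusted p = 0.146). Tpp1, tripeptidyl peptidase, rose by 0.13 in knock-out cells, a call lost without wild-type replicate 3 or knock-out replicate 3 (edgeR adjusted p of 0.0127 and 0.0267), and was 0.04 higher in ΔTAD cells (edgeR adjusted p = 0.332). Ctsh, cathepsin H, was at the edge of detection, with 29 counts over the wild-type, 1 over the knock-out and 5 over the ΔTAD libraries. Its wild-type level was 28.6 times the knock-out level (95% counting interval 4.75 to 1169) and 6.04 times the ΔTAD level (2.31 to 20), intervals that cover counting error only. Parts of Ctsa, Ctsb, Ctsd, Ctsl and Ctsz share exon bases with other genes, as do parts of Hexa, Glb1, Galc, Grn, Lamp1 and Atp6v1h. The counting's mode and strand setting are not given in the sources used here, so the counts of all these genes carry that uncertainty. The shared bases were 34.4% of the exon bases of Ctsd, with Gm49369 on the same strand. Of the exon bases of Ctsl, 26.8% were shared with Gm47123 on the other strand and 6.09% with Gm49230 on the same strand. Those of Ctsb were shared to 12.8%, with Fdft1 on the other strand.

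The glycosidases and lipid hydrolases leaned upward in both edited genotypes. Of the 10 genes, 6 rose and 1 fell in knock-out cells, and 8 rose and none fell in ΔTAD cells. The shares over all genes tested were 22.8% and 22.4% in knock-out and 26.3% and 23.4% in ΔTAD cells. Naglu (ENSMUSG00000001751, chr11:101070012-101077672, plus strand) encodes the N-acetylglucosaminidase that degrades heparan sulphate. It was at 21.4, 19.7 and 21.6 CPM in wild-type, 40.0, 36.6 and 37.5 CPM in knock-out and 39.5, 43.8 and 46.0 CPM in ΔTAD libraries. The libraries of the edited genotypes overlapped with each other and lay apart from wild-type. Naglu rose 1.82-fold in knock-out (log2 fold change 0.86, SE 0.0664, edgeR adjusted p = 4.8e-11) and 2.07-fold in ΔTAD cells (1.05, SE 0.0649, edgeR adjusted p = 6.5e-13). Neu1 (ENSMUSG00000007038, chr17:34931253-34935953, plus strand), the lysosomal sialidase, was at 48.7, 46.0 and 45.1 CPM in wild-type, 78.2, 78.5 and 79.5 CPM in knock-out and 90.1, 98.8 and 95.8 CPM in ΔTAD libraries. The 3 genotypes did not overlap. It rose by 0.75 (SE 0.0414, edgeR adjusted p = 7.9e-14) and by 1.03 (SE 0.0403, edgeR adjusted p = 9.6e-17). Neu1 lies on chromosome 17, where the median of 746 tested genes lay at 0.48 in knock-out cells and at 0.50 in ΔTAD cells. Relative to that median its differences were 0.27 and 0.53.

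The β-galactosidase gene Glb1 rose from 41.3 ± 1.77 CPM (SD, n = 3) to 62.6 ± 2.00 CPM in knock-out and 63.8 ± 1.63 CPM in ΔTAD cells (log2 fold changes 0.60 and 0.63). Asah1, acid ceramidase, rose by 0.47 and 0.53, and Hexa, the α subunit of β-hexosaminidase, by 0.38 and 0.20, the latter falling to 0.11 and not called with library size alone (edgeR adjusted p = 0.160). The α-mannosidase gene Man2b1 rose by 0.20 in knock-out and by 0.53 in ΔTAD cells. Smpd1, acid sphingomyelinase, rose by 0.45 in ΔTAD cells. Its log2 fold change in knock-out cells was 0.21 (edgeR adjusted p = 0.0127), which was called without ΔTAD replicate 1 (edgeR adjusted p = 0.00994). Gaa, acid α-glucosidase, rose by 0.15 in ΔTAD cells, but the call was lost when any of 5 libraries, wild-type 2 and 3 and all ΔTAD libraries, was left out (edgeR adjusted p from 0.0136 to 0.0499). In knock-out cells Gaa was 0.12 higher (edgeR adjusted p = 0.0313), and called without wild-type replicate 1 (edgeR adjusted p = 0.000611). Gusb, β-glucuronidase, was not called, at 561 ± 18.4, 567 ± 18.02 and 590 ± 18.8 CPM (SD, n = 3) in wild-type, knock-out and ΔTAD cells. Galc, galactosylceramidase, fell by 0.17 in knock-out cells, a call lost without knock-out replicate 1 (edgeR adjusted p = 0.0120), and was 0.04 higher in ΔTAD cells (edgeR adjusted p = 0.393).

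Galc and Lgmn lie on chromosome 12, where the median of 541 tested genes lay at −0.52 in knock-out cells and at −0.54 in ΔTAD cells. Relative to that median, Galc was 0.35 and 0.58 higher, and Lgmn was level in knock-out cells (−0.02) and 0.28 higher in ΔTAD cells. The direction of Galc in knock-out cells and of Lgmn in ΔTAD cells thus depends on whether the shift of their chromosome is taken off. The other chromosomes that hold members had medians between −0.06 and 0.03. Over the 33 tested members on chromosomes other than 12 and 17, 22 rose and 4 fell in knock-out cells and 22 rose and 3 fell in ΔTAD cells. Of all genes tested, on every chromosome, 22.8% rose and 22.4% fell in knock-out and 26.3% and 23.4% in ΔTAD cells. The shares over all genes off these 2 chromosomes were not computed. The cause of the shift of the 2 chromosomes was not tested.

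**Figure D2:**
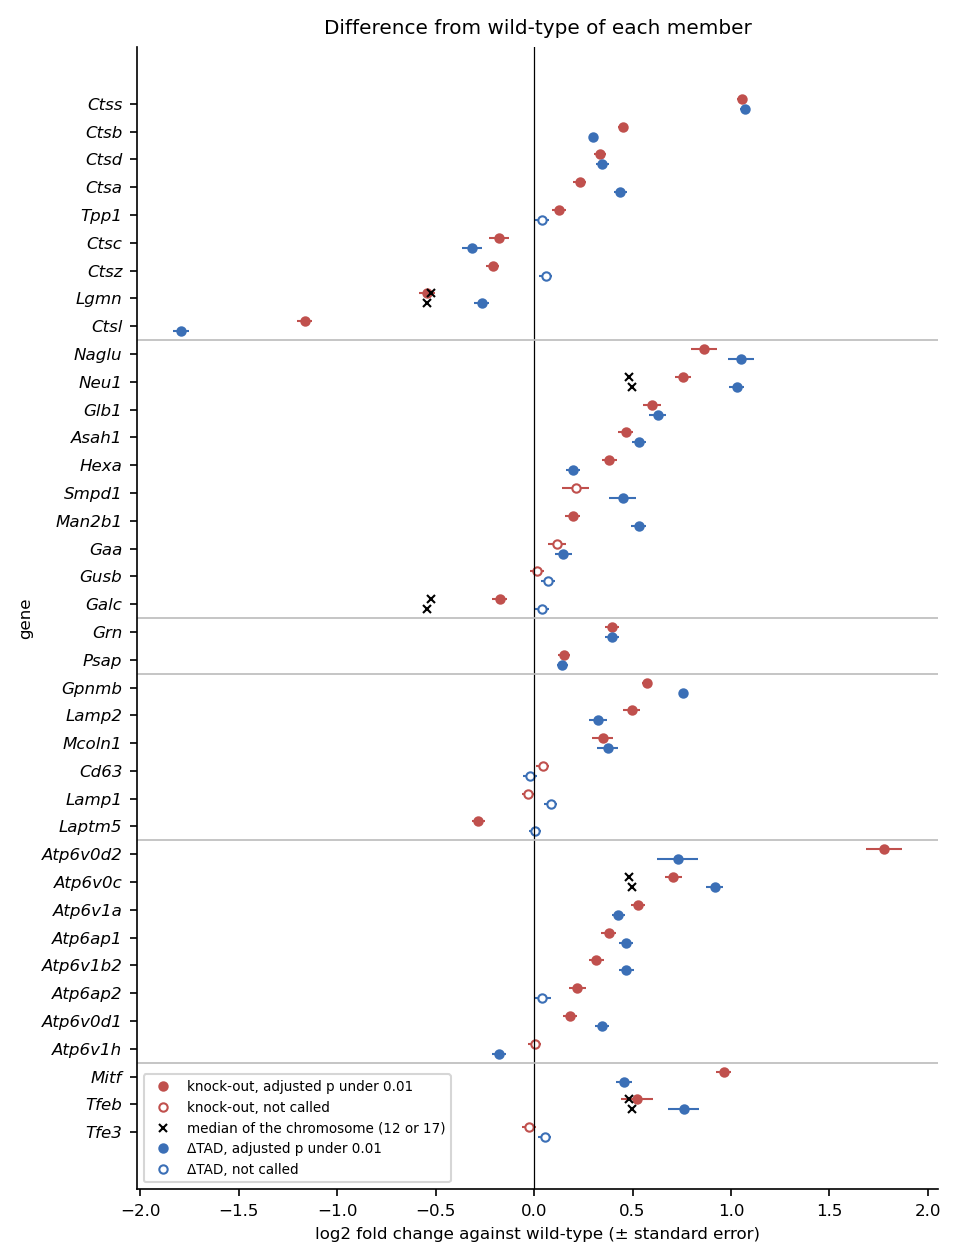
Log2 fold change of each of the 38 tested members against wild-type cells (x axis, bars are standard errors), in knock-out (red) and ΔTAD cells (blue), filled where called at an adjusted p-value under 0.01, with crosses at the median of chromosome 12 or 17 for the 5 members there. Most points lie to the right of 0, Ctsl lies at −1.17 and −1.79, and Atp6v0d2 at 1.78 and 0.73.

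Both precursor genes rose in both edited genotypes. Psap encodes prosaposin, from which the saposins that help sphingolipid hydrolases are cut, and rose by 0.15 and 0.14. With library size alone neither Psap difference was called (0.14 and 0.05, edgeR adjusted p of 0.0676 and 0.497). Grn encodes progranulin, which reaches the lysosome partly with prosaposin and is cut into granulins, and rose from 429 ± 18.3 CPM (SD, n = 3) to 564 ± 14.3 CPM in knock-out and 564 ± 11.8 CPM in ΔTAD cells (0.40 and 0.39).

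Of the 6 membrane protein genes, 3 rose and 1 fell in knock-out cells, and 3 rose and none fell in ΔTAD cells. Beside them, 22.8% of all genes tested rose and 22.4% fell in knock-out, and 26.3% and 23.4% in ΔTAD cells. Gpnmb, a glycoprotein of lysosomes and melanosomes is known to be induced by MiT factors. Its libraries were at 3173, 3044 and 3031 CPM in wild-type, 4669, 4412 and 4675 CPM in knock-out and 5259, 5295 and 5089 CPM in ΔTAD cells, without overlap between genotypes. It rose by 0.57 (SE 0.0227, edgeR adjusted p = 1.45e-16) and 0.76 (SE 0.0228, edgeR adjusted p = 5.1e-19). Lamp2, a major protein of the lysosomal membrane needed for fusion with autophagosomes, rose by 0.50 and 0.32, and Mcoln1, the calcium channel through which lysosomes signal to TFEB, by 0.35 and 0.38. Laptm5, a membrane protein of blood cell lysosomes, fell by 0.28 in knock-out cells and was level in ΔTAD cells, at 506 ± 11.4, 416 ± 6.32 and 508 ± 5.74 CPM (SD, n = 3) in the 3 genotypes. Lamp1, the other major membrane glycoprotein, had log2 fold changes of −0.03 and 0.08 and the tetraspanin Cd63 of 0.04 and −0.02, none of them called.

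The v-ATPase genes were called higher almost throughout. Of the 8, 7 rose and none fell in knock-out cells, and 6 rose and 1 fell in ΔTAD cells. Over all genes tested 22.8% rose and 22.4% fell in knock-out and 26.3% and 23.4% in ΔTAD cells. Atp6v0d2 (ENSMUSG00000028238, chr4:19876841-19922605, minus strand) encodes the d2 form of a subunit of the membrane sector, known from osteoclasts and macrophages. Per kilobase of exon it was the lowest of the 8, and as CPM it was at 9.82, 8.10 and 7.33 CPM in wild-type, 27.1, 30.6 and 29.7 CPM in knock-out and 14.2, 15.2 and 12.9 CPM in ΔTAD libraries. The genotypes did not overlap, and the knock-out libraries were the highest. The rise was 3.43-fold in knock-out (log2 fold change 1.78, SE 0.0920, edgeR adjusted p = 2.7e-14) and 1.66-fold in ΔTAD cells (0.73, SE 0.103, edgeR adjusted p = 1.3e-06). Its widely expressed counterpart Atp6v0d1 was at 82.7 ± 3.26 CPM (SD, n = 3) in wild-type and rose by 0.18 and 0.34.

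Atp6v0c, the proteolipid that forms the rotating ring, rose from 63.6 ± 3.05 CPM (SD, n = 3) to 103.9 ± 5.88 CPM in knock-out and 120 ± 4.54 CPM in ΔTAD cells, log2 fold changes of 0.71 and 0.92. It too lies on chromosome 17, and relative to that chromosome's median its differences were 0.22 and 0.42. In the catalytic sector, Atp6v1a, which binds ATP, rose by 0.53 and 0.43 and Atp6v1b2, its partner in the head, by 0.32 and 0.47. Atp6v1h, the subunit that regulates the coupling of the 2 sectors, differed by 0.00 in knock-out cells (edgeR adjusted p = 0.957) and fell by 0.18 in ΔTAD cells. The accessory subunit Atp6ap1 rose by 0.38 and 0.47. Atp6ap2, the prorenin receptor, rose by 0.22 in knock-out cells and had 0.04 in ΔTAD cells (edgeR adjusted p = 0.427).

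Of the MiT factor genes, Mitf and Tfeb rose in both edited genotypes and Tfe3 was called in neither. Mitf (ENSMUSG00000035158, chr6:97807052-98021349, plus strand) was at 64.9, 62.4 and 58.1 CPM in wild-type, 117, 122 and 124 CPM in knock-out and 86.8, 84.4 and 84.0 CPM in ΔTAD libraries. The 3 genotypes did not overlap, with ΔTAD cells between the others. It rose by 0.96 in knock-out (SE 0.0382, edgeR adjusted p = 1.45e-16) and by 0.46 in ΔTAD cells (SE 0.0394, edgeR adjusted p = 3.5e-10). Tfeb (ENSMUSG00000023990, chr17:47737030-47792419, plus strand) was at 16.7, 15.2 and 13.0 CPM in wild-type, 20.7, 21.8 and 22.4 CPM in knock-out and 26.5, 25.4 and 24.7 CPM in ΔTAD libraries. Its order was the other way round, with the ΔTAD libraries highest. It rose by 0.52 (SE 0.0804, edgeR adjusted p = 5.0e-06) and by 0.76 (SE 0.0780, edgeR adjusted p = 7.7e-09), and relative to the median of chromosome 17, where it lies, its differences were 0.04 and 0.26. Tfe3 (ENSMUSG00000000134, chrX:7762560-7775202, plus strand) was at 79.6, 76.5 and 75.5 CPM in wild-type, 77.6, 75.3 and 74.9 CPM in knock-out and 77.9, 80.4 and 81.9 CPM in ΔTAD libraries. The wild-type libraries overlapped those of both edited genotypes, and the log2 fold changes were −0.02 and 0.05 (SE 0.0354 and 0.0350, edgeR adjusted p of 0.580 and 0.196). The level of the RNA says nothing of where in the cell the MiT proteins were.

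**Figure D3:**
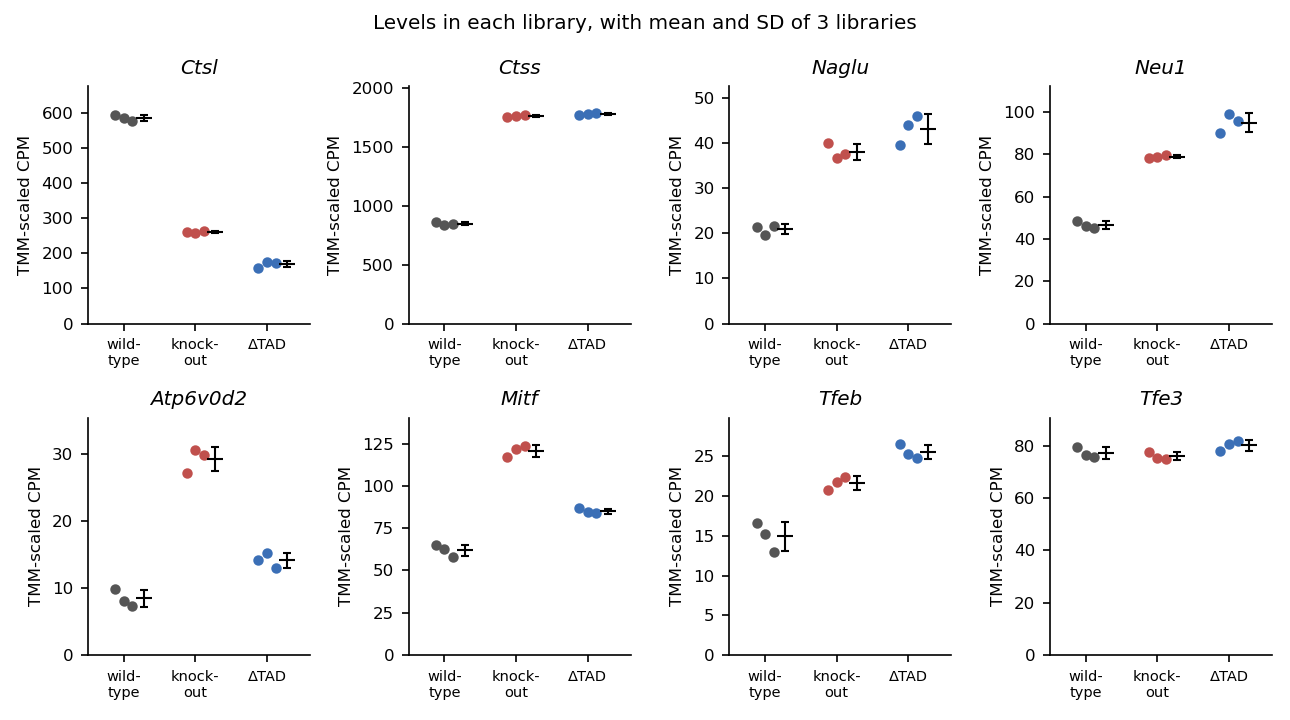
CPM (y axis, from 0) of the 5 members that differ by 1 or more on the log2 scale in a comparison and of the 3 MiT factor genes, 1 point per library, with the mean and SD of the 3 libraries of each genotype. Ctsl falls from wild-type to knock-out to ΔTAD cells, Ctss is alike in both edited genotypes, Atp6v0d2 and Mitf are highest in knock-out cells, and the wild-type points of Tfe3 overlap those of both edited genotypes.

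Knock-out and ΔTAD cells were then compared directly. Of the 38 members 8 were higher and 13 lower in knock-out than in ΔTAD cells, where 13.9% of all genes tested were higher and 19.1% lower (33.0% called), and the median of the members was −0.04 beside −0.03 over all genes. The split of called members, 38.1% of them higher in knock-out cells, depends on the scaling and the samples fitted. With library size alone 8 were higher and 4 lower (66.7% higher), and in a fit of only the 2 genotypes 10 were higher and 10 lower (50% higher). Library size alone leaves out the TMM factors, which were 0.888 for ΔTAD replicate 1 and 0.9993 to 1.027 for the other libraries. The part of that replicate in the change was not tested. Of the 8 higher members 3 differed by over 0.5, and none of the 13 lower ones did. Higher in knock-out cells were Atp6v0d2 (2.07-fold, log2 fold change 1.05, SE 0.0833, edgeR adjusted p = 3.6e-10), Ctsl (1.54-fold, 0.63, SE 0.0384, edgeR adjusted p = 2.8e-12) and Mitf (1.42-fold, 0.51, SE 0.0366, edgeR adjusted p = 6.1e-11), and by 0.15 to 0.19 Ctsb, Lamp2, Atp6ap2, Atp6v1h and Hexa. Atp6v0d2 was the only member to differ by 1 or more on the log2 scale here, where 3.93% of all genes reached it. Lower in knock-out cells were Man2b1 (−0.33), Laptm5 (−0.29), Lgmn (−0.28), Neu1 (−0.27), Ctsz (−0.27), Smpd1 (−0.24), Galc (−0.21), Atp6v0c (−0.21), Ctsa (−0.21), Gpnmb (−0.19), Atp6v0d1 (−0.16), Atp6v1b2 (−0.15) and Lamp1 (−0.11). The 2 forms of the d subunit of the pump were thus on opposite sides, Atp6v0d2 higher and Atp6v0d1 lower in knock-out than in ΔTAD cells. With library size alone, Ctsa, Ctsz, Lamp1, Galc, Smpd1, Gpnmb, Atp6v0d1, Atp6v0c and Atp6v1b2 were no longer called.

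Several calls of this comparison were lost or gained when a single library was left out, some of them with any of several libraries. Without knock-out replicate 1 or 2 or ΔTAD replicate 1 or 2, Lamp1 was not called (edgeR adjusted p from 0.0188 to 0.0572). Smpd1 was lost without knock-out replicate 2 or 3 or ΔTAD replicate 1 or 3 (edgeR adjusted p from 0.0125 to 0.0319), and Lamp2 without knock-out replicate 2 or 3 or ΔTAD replicate 2 or 3 (0.0118 to 0.0276). Atp6v1b2 was lost without knock-out replicate 2 or ΔTAD replicate 2 (0.0110 and 0.0152), and Atp6ap2 without knock-out replicate 2 or ΔTAD replicate 3 (0.0144 and 0.0165). Naglu, at −0.19 and an edgeR adjusted p of 0.0124, was called without ΔTAD replicate 1 (edgeR adjusted p = 0.00271), as were Atp6v1a (0.10 with all libraries and 0.16 without, edgeR adjusted p = 0.00014) and Tpp1 (0.09 and 0.12, edgeR adjusted p = 0.00966). Without that library 28 members were called against wild-type and 22 against knock-out cells, and the largest shift of any member was 0.08, of Lamp2. Tfeb, at −0.23 and an edgeR adjusted p of 0.0118, was called without wild-type replicate 1 or 3 (0.00831 and 0.00570). Members with a small estimate were Ctss (−0.01, SE 0.0234), Ctsd (−0.01, SE 0.0312), Grn (0.00, SE 0.0352) and Psap (0.01, SE 0.0280).

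**Figure D4:**
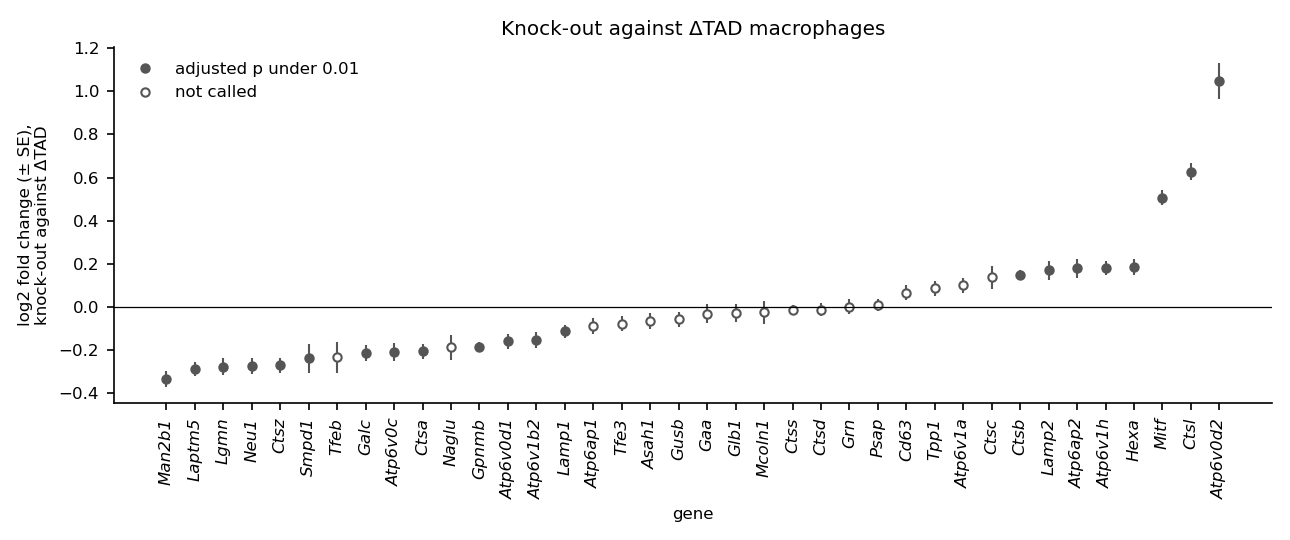
Log2 fold change of knock-out against ΔTAD cells (y axis, bars are standard errors) for the 38 tested members in order (x axis), filled where called at an adjusted p-value under 0.01. A long row of small differences to either side of 0 ends in Mitf, Ctsl and Atp6v0d2 at 0.51, 0.63 and 1.05.

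Together the 39 genes made up 15783 ± 346 CPM (SD, n = 3) in wild-type, 20103 ± 399 CPM in knock-out and 20576 ± 281 CPM in ΔTAD cells, 1.58%, 2.01% and 2.06% of the scaled counts. The wild-type libraries, at 15498 to 16168 CPM, lay below all edited ones, at 19672 to 20786 CPM. Gpnmb and Ctsb carried much of this. Without them the sums were 9628 ± 206, 11317 ± 137 and 11575 ± 75.8 CPM. By role, the sum of the v-ATPase genes was 1.31 times the wild-type sum in knock-out and 1.30 times in ΔTAD cells, and that of the membrane proteins 1.32 and 1.47 times. Most of the membrane protein sum was Gpnmb, with 3083 of 4726 CPM in wild-type, 4585 of 6225 CPM in knock-out and 5214 of 6963 CPM in ΔTAD cells. The ratios of that role therefore follow Gpnmb and do not describe the other membrane protein genes. Per kilobase of exon, the only scale on which levels of different genes are compared here, the highest members in wild-type cells were Ctss (624 CPM per kilobase), Ctsb (508), Gpnmb (473), Ctsd (367), Ctsz (351), Psap (294) and Lamp1 (268). The exon length joins the exons of all annotated transcripts of a gene, 1358 bases for Ctss and 6489 for Ctsl. It can exceed the length of the transcript expressed, so this order is approximate. In ΔTAD cells Ctss (1311) and Gpnmb (800) stood above Ctsb (626). At the other end of the tested members were Tfeb (2.64 CPM per kilobase in wild-type cells), Atp6v0d2 (3.10) and Mcoln1 (4.42). Atp6v0d2 reached 10.7 in knock-out cells.

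The rest of the pathway was read from 5 lists of other lysosomal genes. Of their 122 genes 112 were tested, of which 63 rose and 14 fell in knock-out and 71 rose and 11 fell in ΔTAD cells, with medians of 0.27 and 0.33. Among all genes tested 22.8% rose and 22.4% fell in knock-out and 26.3% and 23.4% in ΔTAD cells. These are the shares to set beside the counts of each list below. The lists of other v-ATPase genes and of other hydrolases moved much as the members did. Of 12 other v-ATPase genes 8 rose and 1 fell in knock-out, and 10 rose and none fell in ΔTAD cells. Tcirg1, the a3 subunit of the membrane sector, rose by 0.70 in knock-out and by 0.61 in ΔTAD cells. Atp6v0e, a small subunit of the membrane sector encoded on chromosome 17, rose by 0.75 and 0.72 (0.26 and 0.22 relative to the median of that chromosome). Atp6v1g1, of the stalk, rose by 0.56 in knock-out and by 0.79 in ΔTAD cells. Atp6v1d on chromosome 12 fell by 0.28 in knock-out cells but was 0.24 higher relative to that chromosome's median. Atp6v0a1, another form of the a subunit, was 0.67 higher in knock-out than in ΔTAD cells.

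Of 29 other hydrolases 19 rose and 1 fell in knock-out, and 24 rose and 2 fell in ΔTAD cells. Arsb, arylsulphatase B, rose by 1.0 in knock-out and by 1.19 in ΔTAD cells. Ctsk, cathepsin K, the collagen-degrading protease of osteoclasts, went from 58.5, 55.0 and 55.3 CPM in wild-type to 107.1, 98.1 and 105.1 CPM in knock-out and 1581, 1543 and 1512 CPM in ΔTAD libraries. The ΔTAD libraries stood far above all others, 4.78 higher than wild-type on the log2 scale (SE 0.0423, edgeR adjusted p = 2.2e-29) with −3.90 for knock-out against ΔTAD cells (SE 0.0403, edgeR adjusted p = 7.85e-28). Naaa, an acid amidase, rose by 0.84 in knock-out and by 1.37 in ΔTAD cells. Ppt1, palmitoyl-protein thioesterase, fell by 0.43 and 0.89, and Pla2g15, a phospholipase, by 0.25 in ΔTAD cells.

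**Figure D5:**
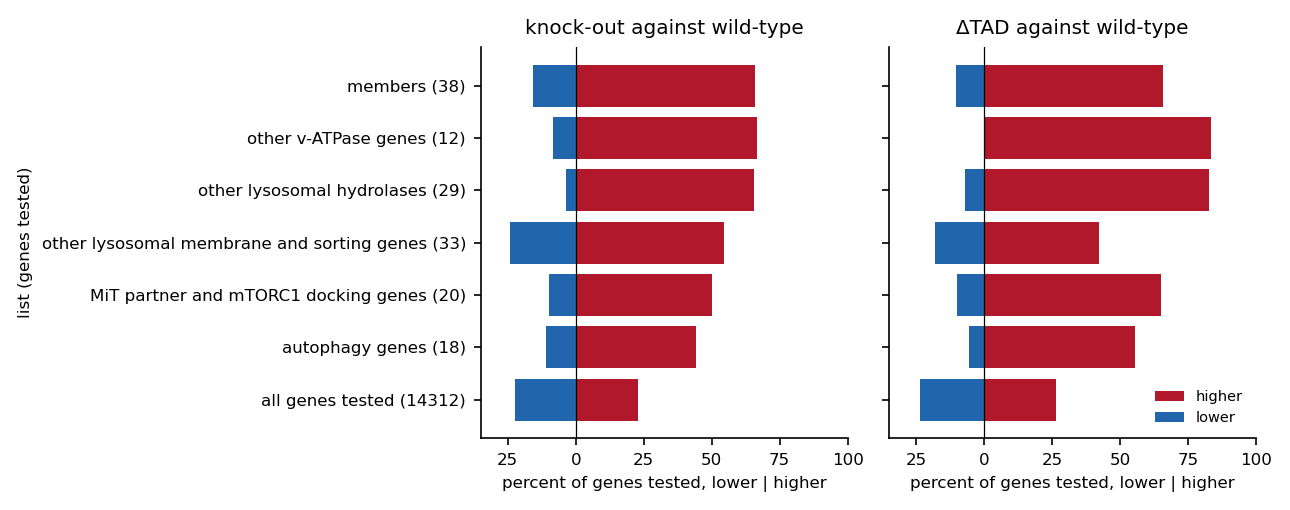
Percent of the genes tested in each list that were called higher (red, right of 0) or lower (blue, left of 0) than in wild-type cells, in knock-out (left panel) and ΔTAD cells (right panel), with the number tested in brackets. The members, the other v-ATPase genes and the other hydrolases reach 65.5% to 83.3% higher, beside 22.8% and 26.3% of all 14312 genes tested.

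The other membrane and sorting genes were more mixed, with 18 of 33 higher and 8 lower in knock-out and 14 higher and 6 lower in ΔTAD cells. Laptm4b, a relative of Laptm5, went from 25.03, 25.7 and 25.6 CPM to 5.69, 5.20 and 4.42 CPM in knock-out and 7.83, 7.54 and 9.38 CPM in ΔTAD libraries, and fell by 2.31 (SE 0.0970, edgeR adjusted p = 4.3e-16) and 1.62 (SE 0.0872, edgeR adjusted p = 4.8e-14). Cd164, a sialomucin of endosomes and lysosomes, fell by 0.98 and 1.26. Clcn7, the chloride and proton exchanger of lysosomes, rose by 1.15 and 0.95, 0.67 and 0.46 above the median of its chromosome 17. The transporter gene Abcb9 rose by 0.96 in knock-out cells. The mannose 6-phosphate receptor gene Igf2r was at 785 ± 28.3, 1481 ± 29.0 and 820 ± 11.6 CPM (SD, n = 3) in wild-type, knock-out and ΔTAD cells, 0.85 higher in knock-out than in ΔTAD cells, while Gnptg, a subunit of the enzyme that makes the tag it binds, was 0.44 lower. Both genes lie on chromosome 17. Relative to that chromosome's median Igf2r differed from wild-type by 0.43 in knock-out and by −0.44 in ΔTAD cells.

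Of the 20 MiT partner and mTORC1 docking genes, 10 rose and 2 fell in knock-out and 13 rose and 2 fell in ΔTAD cells. In both edited genotypes the gene of this list that rose the most was Tfec and the one that fell the most was Rragd. Tfec, the remaining gene of the MiT family, had 4, 4 and 5 counts in the wild-type, 120, 130 and 98 in the knock-out and 171, 265 and 214 in the ΔTAD libraries. Its level was 27.1 times the wild-type level in knock-out (95% counting interval 15.7 to 51.4) and 48.0 times in ΔTAD cells (27.9 to 90.6), and 0.82 lower on the log2 scale in knock-out than in ΔTAD cells (SE 0.120, edgeR adjusted p = 6.0e-06). Rragd encodes RagD, a GTPase that recruits mTORC1 and MiT proteins to the lysosome. It had 66, 71 and 52 counts in wild-type, 2, 11 and 2 in ΔTAD and 0 in every knock-out library. This made it at least 19.4-fold lower in knock-out than in wild-type cells, taking 3 counts in each knock-out library, and 13.1-fold lower in ΔTAD cells (95% counting interval 7.76 to 23.9). Rraga, of another Rag GTPase, fell by 0.16 and 0.14, and Tsc2, an inhibitor of mTORC1 encoded on chromosome 17, rose by 0.67 and 0.73 (0.19 and 0.23 relative to that chromosome's median).

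Of the 18 autophagy genes 8 rose and 2 fell in knock-out and 10 rose and 1 fell in ΔTAD cells. Sqstm1, the cargo receptor p62, rose from 453 ± 14.1 CPM (SD, n = 3) to 712 ± 10.6 CPM in knock-out and 616 ± 11.2 CPM in ΔTAD cells. Gabarap, of the ubiquitin-like proteins of the autophagosome membrane, rose by 0.51 and 0.67. Becn1, of the kinase complex that starts autophagosomes, fell by 0.19 and 0.16, and its partner Uvrag by 0.20 in knock-out cells. Against each other, knock-out cells were higher than ΔTAD cells in 11 and lower in 40 of the 112 genes of the 5 lists. In that comparison 13.9% of all genes tested were higher and 19.1% lower. With library size alone the 40 became 14.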

How the data were processed

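RNA of 9 RAW264.7 libraries, 3 for each genotype, was measured. After depleting ribosomal RNA the authors sequenced single-end reads, trimmed them with Trimmomatic (0.36 in the submitters' processing notes), aligned them to GRCm38 with HISAT2 (2.3.4.3 in the same notes) and counted them with HTSeq. The deposited files hold raw counts per Ensembl gene, with no normalization. In each library 46.7% to 53.2% of the records were on genes, and the tally lines were left out.

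The test was edgeR's (4.0.16, R 4.3.3). filterByExpr (minimum count 10, minimum total 15) kept 14312 genes, TMM scaled the libraries, and 1 quasi-likelihood model with a mean per genotype was fitted to all 9 (biological coefficient of variation 0.0468). P-values were Benjamini-Hochberg adjusted over all genes tested, and genes under 0.01 were called, as in the study. The standard error was taken as the estimate over the root of F. No set test was run. Positions and exon lengths are from GENCODE M21, promoters from RefSeq.

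The members and lists were chosen with earlier results of these data known. All 39 members are named. Of every other list at most the 2 highest and 2 lowest called genes of a comparison with at least 1 CPM in the higher group are named, except 1 gene that is not reported here. Values by library are given for members that differ by 1 or more on the log2 scale and for the MiT factors, and for Gpnmb, Ctsk, Laptm4b, Tfec and Rragd, chosen after their values were seen.

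Tried as alternatives were limma-voom (limma 3.58.1), DESeq2 1.42.0 and its size factors, library size alone, 2 other filters, fits of 2 genotypes, a replicate block, calls at 0.05, calls with a log2 difference of 1 or more, differences relative to the chromosome median, and each library left out. Counting members off chromosomes 12 and 17 was added after seeing the data.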

Additional observations from a re-analysis of the deposited data

How the results depend on the processing

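The counts of members called stayed within 1.5 times under the other tests, filters and sample sets and the replicate block, and moved further with the threshold and, between knock-out and ΔTAD cells, with library size alone. With a difference of 1 or more on the log2 scale required, 2 members were higher and 1 lower in knock-out than in wild-type cells, 3 and 1 in ΔTAD cells, and 1 and 0 in knock-out against ΔTAD cells. For the other lists, with 112 genes tested, these counts were 4 and 2, 8 and 3, and 0 and 2. Of all genes tested 7.66% reached this difference in either direction in knock-out and 9.31% in ΔTAD against wild-type cells. In knock-out against ΔTAD cells 3.93% did. With library size alone, 4 members (13 with TMM) and 14 genes of the other lists (40 with TMM) were lower in knock-out than in ΔTAD cells. This scaling moved the median over all genes by −0.09 in ΔTAD against wild-type and by 0.07 in knock-out against ΔTAD cells. It leaves out the TMM factor of ΔTAD replicate 1, 0.888, the library with 11.0% of its counts on a ribosomal RNA locus. Relative to the chromosome median, the called members Lgmn in ΔTAD cells (0.28) and Galc in knock-out cells (0.35) changed direction, and so did 5 of the 77 calls of the other lists in knock-out cells, Atp6v1d (0.24), Laptm4a (0.11), Npc2 (0.31), Ppt2 (−0.16) and Mlst8 (−0.02), and 1 of the 82 in ΔTAD cells, Laptm4a (0.33). Of the other lists, these genes except Atp6v1d were named after their values were seen. Leaving out 1 library gave 24 to 26 members higher and 4 to 6 lower in knock-out, 24 to 25 higher and 4 lower in ΔTAD, and 6 to 10 higher and 10 to 14 lower in knock-out against ΔTAD cells. For the other lists the ranges were 57 to 65 and 12 to 14, 62 to 72 and 9 to 11, and 10 to 14 and 32 to 39. In all, 9 calls of members were lost and 6 gained when a single library was left out. Libraries that share a replicate number in the donor labels (the titles number the last library of each genotype otherwise) did not deviate together. Their correlations were −0.0717 to 0.02 over 9 pairs, and 1 of 9 libraries was closest to its own number. Such correlations cannot tell whether libraries with the same number shared a culture or a preparation. With the replicate number as a block, 25 members were higher and 6 lower in knock-out, 25 and 4 in ΔTAD, and 8 and 12 in knock-out against ΔTAD cells, the member lost being Lamp1. With 3 libraries per genotype the standard errors of the members, 0.0226 to 0.103, limit what can be said of the smaller differences.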

Other observations

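Markers of osteoclasts, cells of the same lineage that are rich in v-ATPase and cathepsin K, were counted beside the lysosomal genes, since Atp6v0d2 is one of the genes known from them. Of 9 markers 6 were tested, of which 4 rose and 1 fell in knock-out and 3 rose and 1 fell in ΔTAD cells. The shares over all genes tested were 22.8% and 22.4% in knock-out and 26.3% and 23.4% in ΔTAD cells. Their summed level was 174 to 192 CPM in wild-type, 291 to 300 CPM in knock-out and 1668 to 1727 CPM in ΔTAD cells, most of it Ctsk in ΔTAD cells. Dcstamp, needed for the fusion of osteoclast precursors, was at 40.2 ± 1.87 CPM (SD, n = 3) in wild-type cells, rose by 0.82 in knock-out and fell by 0.58 in ΔTAD cells, and was 1.41 higher in knock-out than in ΔTAD cells (SE 0.0526, edgeR adjusted p = 1.7e-16). Ocstamp, of the same family, was at 1.07 ± 0.170 CPM (SD, n = 3) in wild-type cells and fell by 1.73 in knock-out cells (edgeR adjusted p = 0.000562). Nfatc1, the transcription factor of osteoclast differentiation, rose by 0.52 and 0.58. Atp6v0d2 and Dcstamp were thus both higher in knock-out than in ΔTAD cells, where Ctsk was lower. The part of these markers in the differences of the lysosomal genes was not tested.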
